A study of Mus musculus with 12 samples.

Results

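The lysosome digests material in an acidic lumen. The vacuolar proton pump, the V-ATPase, keeps it acidic: its V1 sector in the cytoplasm splits ATP, its V0 sector in the membrane passes protons, and the accessory subunits Atp6ap1 and Atp6ap2 (the prorenin receptor) help to assemble it. Cathepsins are the proteases of the lumen, cystatins inhibit the cysteine cathepsins, and glycoproteins such as Lamp1 and Lamp2 line the membrane. In the acinar cells of the pancreas, which make digestive enzymes, cathepsin B can cut trypsinogen to active trypsin when lysosomal and secretory contents meet, and cathepsin L can cut trypsinogen to an inactive product.

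The genes described here are those whose symbol starts with Atp6v0, Atp6v1 or Atp6ap, together with 8 cathepsin, 4 membrane and 2 cystatin genes chosen by name. They number 42 of the 49585 genes counted: 14 V1, 11 V0 and 3 accessory symbols, 6 cysteine cathepsins (Ctsb, Ctsc, Ctsf, Ctsh, Ctsl, Ctsz), 2 other cathepsins (Ctsa, a serine carboxypeptidase, and Ctsd, an aspartic protease), 4 membrane proteins and 2 cystatins. The symbol rule also takes in Atp6v1fnb, a neighbour of Atp6v1f, and the pseudogenes Atp6v0c-ps1 and Atp6v0c-ps2, and it leaves out Tcirg1, the V0 subunit a3. Counts were high enough to test 34 of the 42. The other 8 (Atp6v1b1, Atp6v1c2, Atp6v1e2, Atp6v1fnb, Atp6v1g3, both pseudogenes and Atp6ap1l) reached at most 0.436 CPM (counts per 1000000 counted reads, scaled) in a library, and 3 of them had 0 counts in all libraries.

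RNA of whole pancreas was sequenced from mice aged 2 to 4 months. The 4 groups of 3 animals were Atf3-/- mice given cerulein, a cholecystokinin analogue that overstimulates acinar cells, Atf3-/- mice given saline, C57Bl6 control mice (wild type) given cerulein, and wild-type mice given saline. All received 4 injections, of 50 ug/kg each in the cerulein groups, and the pancreas was taken 4 h after the first. The labels do not say which part of Atf3, a stress-induced transcription factor, is deleted, or in which cells. Libraries bear the codes C2, L4 and C3 (Atf3-/- cerulein), S1, K4 and Q1 (Atf3-/- saline), O1, O3 and N3 (wild-type cerulein), and W1, K5 and R3 (wild-type saline).

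Total counts ran from 18292997 to 32158629 per library. Atf3 itself reached 1375 and 1636 CPM in the Atf3-/- cerulein libraries C2 and L4 and 7.44 to 23.1 CPM in the Atf3-/- saline libraries, against 394 to 775 CPM in wild-type cerulein and 1.13 to 5.28 CPM in wild-type saline. The counts of the targeted gene in these Atf3-/- libraries were thus not lower than in wild type. Gene counts cannot tell whether the deleted part is missing, and the Atf3-/- animals are called labelled knockout. C3, a library labelled knockout and cerulein, stood at 20.7 CPM of Atf3, inside the range of its saline group, and it is shown apart below. Among the 34 tested lysosomal genes C3 lay inside the range of the 6 saline libraries for 21 and inside the range of the 5 other cerulein libraries for 9. The same counts were not made over all genes, so they describe C3 and are no trait of the lysosomal genes. All 6 acinar markers were detected, with a summed level of 226100 to 271600 CPM in C2 and L4, 365100 CPM in C3, 291600 to 428600 CPM in labelled knockout saline, 216300 to 286500 CPM in wild-type cerulein and 323400 to 386700 CPM in wild-type saline.

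In wild type, some of these genes were higher in cerulein and others lower, as among all genes tested. Of the 34 tested, 9 were higher in cerulein, 5 were lower and 20 did not pass (edgeR's quasi-likelihood test, adjusted p below 0.05 over all 14329 genes tested). Of all genes tested, 17.9% were higher and 12.8% lower by the same rule. The median log2 fold change was 0.18 for the 34 genes and 0.05 for all genes. Among the classes, 4 of 6 cysteine cathepsins rose and 1 fell, while neither of the 2 other cathepsins passed. Of 18 V1 and V0 subunits 3 rose and 3 fell. With C3 left out of the shared fit, 12 genes were higher and 5 lower in wild type, against 21.3% and 16.6% of 14733 genes. Dropping W1, K5, R3 or O3 left 4 or 5 genes higher, where 8.57% to 10.9% of all genes were higher. Dropping W1, K5, R3, O1, O3 or N3 left 1 to 3 lower, where 3.85% to 8.95% of all genes were lower.

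**Figure D1:**
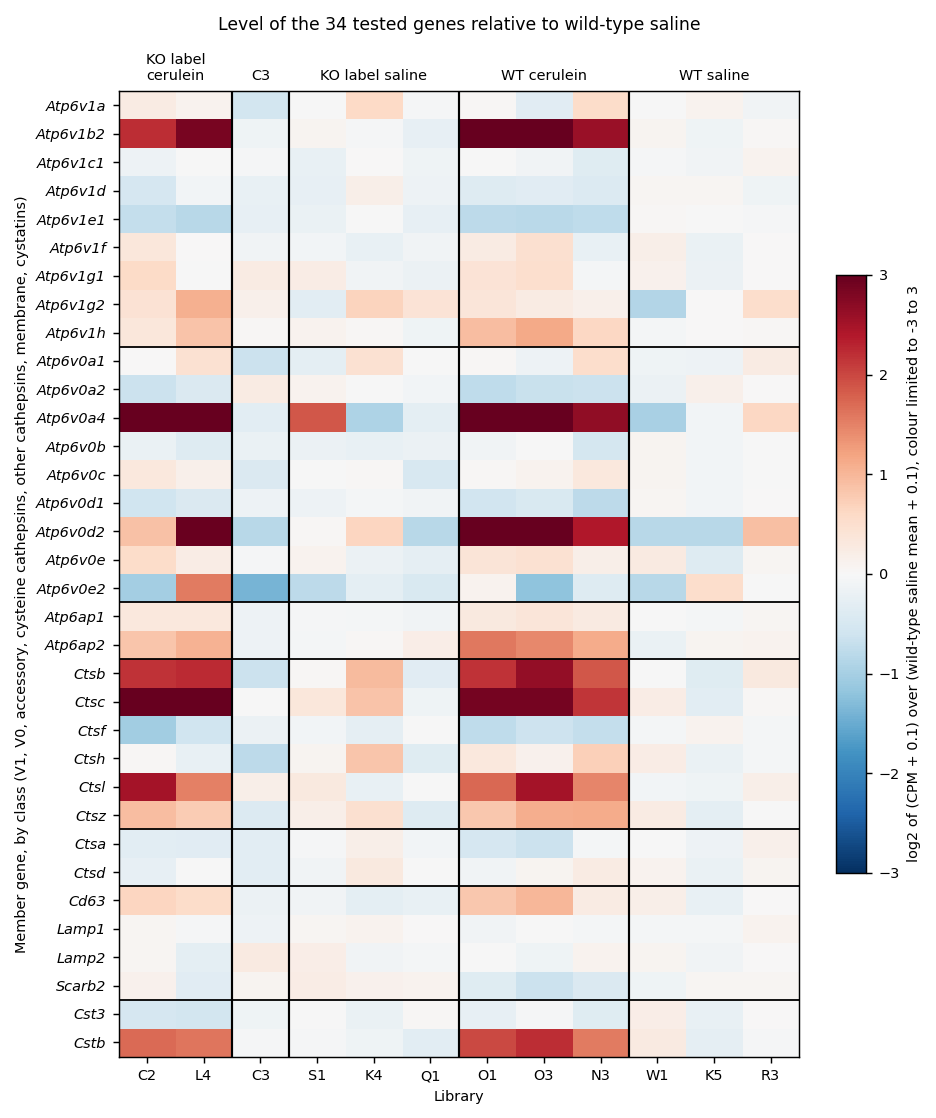
Level of each of the 34 tested genes (rows, grouped by class) in each of the 12 libraries (columns), as log2 of CPM + 0.1 relative to the wild-type saline mean + 0.1, with colours limited to -3 and 3. Rows of Atp6v1b2, Ctsb, Ctsc, Ctsl and Cstb are red in O1, O3, N3, C2 and L4, and pale in C3 and in most saline libraries.

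Cysteine cathepsins changed most as a class. Their summed level was 1100 to 2029 CPM in wild-type cerulein libraries and 326 to 423 CPM in wild-type saline libraries, a 4.00-fold ratio of means. Without C3 it was 1295 and 2181 CPM in labelled knockout cerulein and 344 to 458.5 CPM in labelled knockout saline, a 4.21-fold ratio. C3 held 358 CPM. Ctsl held the highest CPM of the 6 in all 12 libraries.

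Ctsb, the gene of cathepsin B (ENSMUSG00000021939, GRCm38 chromosome 14, 63122462 to 63145923, plus strand), stood at 377.5 (O1), 528 (O3) and 308 CPM (N3) in wild-type cerulein, against 83.2 (W1), 66.1 (K5) and 104 CPM (R3) in wild-type saline. Every wild-type cerulein library lay above every wild-type saline library. Labelled knockout animals gave 382 (C2), 399.6 (L4) and 54.3 CPM (C3) in cerulein, against 86.2 (S1), 164 (K4) and 66.8 CPM (Q1) in saline. C2 and L4 thus lay among the wild-type cerulein libraries, and C3 lay below all 6 saline libraries. The wild-type log2 fold change was 2.26 ± 0.62 (SE, n = 3 per group, edgeR adjusted p = 0.0212). For the labelled knockout it was 1.40 ± 0.60 with C3 (adjusted p = 0.201) and 1.89 ± 0.36 without it (adjusted p = 0.00302). The wild-type call was lost without W1, K5, R3 or O3 (adjusted p up to 0.0774). Exons of Ctsb overlap those of Fdft1 on the opposite strand over 774 bases, and Fdft1 held 24.7 ± 5.1 CPM in wild-type cerulein and 11.1 ± 1.0 CPM in wild-type saline (SD, n = 3 each).

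Ctsl, the gene of cathepsin L (ENSMUSG00000021477, chromosome 13, 64359337 to 64370890, minus strand), stood at 727 (O1), 1237 (O3) and 600.3 CPM (N3) in wild-type cerulein, against 207 (W1), 200.1 (K5) and 249 CPM (R3) in wild-type saline. Labelled knockout cerulein libraries held 1227 (C2), 624 (L4) and 245 CPM (C3), against 270.2 (S1), 189 (K4) and 217 CPM (Q1) in labelled knockout saline. The groups did not overlap in wild type, and in the labelled knockout C3 alone lay within the saline range. Ctsl had a log2 fold change of 1.97 ± 0.49 in wild type (edgeR adjusted p = 0.0148) and 2.04 ± 0.34 in the labelled knockout without C3 (adjusted p = 0.00144), against 1.63 ± 0.48 with C3 (adjusted p = 0.0966). The wild-type call was lost without W1, K5 or O3 (adjusted p up to 0.06). Ctsl shares 395 exonic bases with the gene model Gm49230 on its own strand and 1742 with Gm47123 on the opposite strand. Neither gene model is listed among the genes counted, and how reads in these overlaps were counted is unknown.

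Ctsc encodes dipeptidyl peptidase I, which activates the serine proteases of immune granules. It had the largest rise of the cathepsins in both genotypes. Wild-type cerulein libraries held 189.8 (O1), 193 (O3) and 115.5 CPM (N3), against 30.4 (W1), 21.1 (K5) and 26.7 CPM (R3) in wild-type saline. Labelled knockout cerulein libraries held 509 (C2), 214 (L4) and 25.8 CPM (C3), against 33.1 (S1), 47.1 (K4) and 23.8 CPM (Q1) in saline. The C2 value was the highest of the 12 libraries, more than 2 times that of L4. The log2 fold change was 2.67 ± 0.76 in wild type (edgeR adjusted p = 0.0241), a call that ended when W1, K5, R3, O1 or O3 was dropped (adjusted p as high as 0.0837). Labelled knockout libraries gave 3.38 ± 0.40 without C3 (adjusted p = 0.00021) and 2.85 ± 0.77 with it (adjusted p = 0.0875).

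Ctsz, a carboxypeptidase, rose less, with 45.2 to 56.02 CPM in wild-type cerulein and 20.96 to 30.5 CPM in wild-type saline (log2 fold change 1.02 ± 0.33, edgeR adjusted p = 0.0365). Ctsf, a cathepsin of unusual length, went the other way. It had 5.75 (O1), 6.34 (O3) and 5.87 CPM (N3) in wild-type cerulein, against 9.31 (W1), 10.6 (K5) and 9.45 CPM (R3) in wild-type saline (log2 fold change -0.71 ± 0.21, adjusted p = 0.0258). Dropping W1, K5, R3, O1, O3 or N3 ended each of these calls (adjusted p as high as 0.122 for Ctsz and 0.0846 for Ctsf). Both held when C3 was left out (0.00362 and 0.00436), and without C3 both also passed in the labelled knockout, at 0.72 ± 0.23 for Ctsz (adjusted p = 0.0411) and -0.71 ± 0.17 for Ctsf (adjusted p = 0.0117). Ctsh, an aminopeptidase, did not pass in either genotype. Its level was highest in K4 (15.3 CPM) and N3 (14.2 CPM), 1 saline and 1 cerulein library.

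The other cathepsins did not pass the test. Ctsd, the main aspartic protease of lysosomes, held 89.1 (O1), 101.5 (O3) and 113 CPM (N3) in wild-type cerulein, against 103 (W1), 83.3 (K5) and 102 CPM (R3) in wild-type saline. Labelled knockout pancreas held 81.2 (C2), 95.4 (L4) and 76.6 CPM (C3) in cerulein, against 88.5 (S1), 118 (K4) and 94.5 CPM (Q1) in saline. These groups overlapped in both genotypes, and the wild-type log2 fold change was 0.08 ± 0.18 (edgeR adjusted p = 0.773). Ctsa had 22.1 to 33.2 CPM in wild-type cerulein and 31.2 to 38.2 CPM in wild-type saline (log2 fold change -0.38 ± 0.17, adjusted p = 0.109). Of the 2351 exonic bases of Ctsd, 808 overlap Gm49369 on the same strand, which is listed at 0 in all libraries. How reads in that overlap were counted is unknown, and the level of Ctsd per kb, with ratios to it, carries that uncertainty. Per kb of exon, Ctsb stood at 1.06 to 2.02 times Ctsd in wild-type cerulein and at 0.308 to 0.397 times Ctsd in wild-type saline. C2 and L4 gave 1.63 and 1.83 for that ratio of levels, C3 gave 0.275 and labelled knockout saline 0.275 to 0.539.

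**Figure D2:**
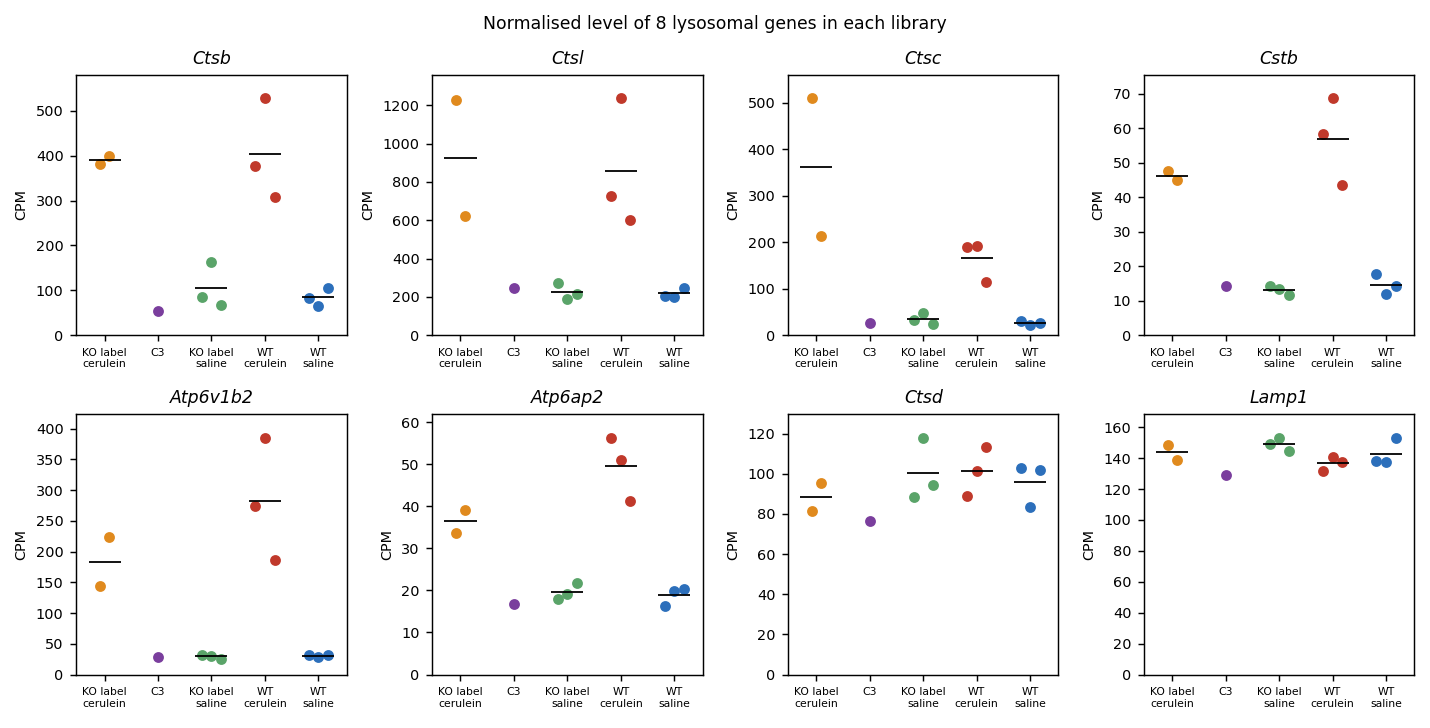
CPM of 8 genes (panels) in each of the 12 libraries (points), with axes from 0, a horizontal line at the mean of each group, and C3 in a column of its own. Ctsb, Ctsl, Ctsc, Cstb, Atp6v1b2 and Atp6ap2 sit higher in the 5 other cerulein libraries than in any saline library, and C3 sits within the saline range for these genes except Ctsb, where it is below; Ctsd and Lamp1 overlap between groups.

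Of the cystatins 1 of 2 rose. Cstb (cystatin B, chromosome 10, 78425669 to 78427622, plus strand), the inhibitor of cysteine cathepsins inside cells, held 58.2 (O1), 68.7 (O3) and 43.5 CPM (N3) in wild-type cerulein, against 17.7 (W1), 12.1 (K5) and 14.2 CPM (R3) in wild-type saline. C2 and L4 held 47.6 and 45.02 CPM and C3 14.2 CPM, against 14.4 (S1), 13.3 (K4) and 11.7 CPM (Q1) in labelled knockout saline. The log2 fold change was 1.95 ± 0.38 in wild type (edgeR adjusted p = 0.00918) and 1.82 ± 0.21 in the labelled knockout without C3 (adjusted p = 0.000151), but with C3 it did not pass (1.44 ± 0.38, adjusted p = 0.0863). Cst3, the secreted cystatin C, held 186 (O1), 215 (O3) and 173 CPM (N3) in wild-type cerulein, against 253 (W1), 189 (K5) and 223 CPM (R3) in wild-type saline. It held 156 (C2), 150.3 (L4) and 203 CPM (C3) in labelled knockout cerulein, against 219 (S1), 194 (K4) and 229 CPM (Q1) in labelled knockout saline. Its change did not pass in wild type (-0.21 ± 0.19, adjusted p = 0.423) or without C3 in the labelled knockout (-0.48 ± 0.18, adjusted p = 0.0633). Per kb the level of Cstb was 0.527 to 0.671 of that of Cst3 in wild-type cerulein and 0.134 to 0.147 of it in wild-type saline.

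Cathepsin B was also set against its counterparts within each library, where scaling cannot matter. The log2 ratio of Ctsb to the summed cystatins was 0.63 (O1), 0.90 (O3) and 0.51 (N3) in wild-type cerulein and -1.70 (W1), -1.60 (K5) and -1.19 (R3) in wild-type saline. The ranges did not overlap, and the means differed by 2.17 (exact permutation test, two-sided, p = 0.1, the smallest that 3 against 3 can give, and 0.2 adjusted over the 4 ratio tests). In the labelled knockout this ratio was 0.91 (C2), 1.03 (L4) and -2.0 (C3) in cerulein and -1.44 (S1), -0.34 (K4) and -1.85 (Q1) in saline, a difference of 1.19 (exact permutation p = 0.4, adjusted p = 0.533), and 2.18 without C3 (exact p = 0.2, the smallest possible). The log2 ratio of Ctsb to Ctsl averaged -1.05 ± 0.16 in wild-type cerulein and -1.39 ± 0.18 in wild-type saline (SD, n = 3 each, exact permutation p = 0.1, adjusted p = 0.2). The labelled knockout averaged -1.50 ± 0.78 in cerulein and -1.18 ± 0.85 in saline (exact permutation p = 0.6), and without C3 the difference turned to 0.02.

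Within the V1 sector a single gene accounted for the rise in the summed level. V1 genes together held 299.6 to 524 CPM in wild-type cerulein and 144 to 157 CPM in wild-type saline, and without Atp6v1b2 they held 112.5 to 139 CPM in cerulein and 116 to 125 CPM in saline. Atp6v1b2 encodes the widely expressed form of the B subunit, which shares the ATP-binding ring with the A subunit (ENSMUSG00000006273, chromosome 8, 69088646 to 69113711, plus strand). It stood at 274 (O1), 386 (O3) and 187 CPM (N3) in wild-type cerulein, against 32.3 (W1), 28.3 (K5) and 31.6 CPM (R3) in wild-type saline. C2 and L4 held 144 and 223 CPM and C3 28.1 CPM, against 32.5 (S1), 29.9 (K4) and 25.9 CPM (Q1) in labelled knockout saline. The wild-type change of 3.20 ± 0.59 on the log2 scale (edgeR adjusted p = 0.00918) was the largest of the 14 that passed. The labelled knockout gave 2.64 ± 0.28 without C3 (adjusted p = 9.7e-05) and 2.16 ± 0.56 with C3 (adjusted p = 0.086).

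The A subunit, Atp6v1a, holds the catalytic ATP site and did not pass. It held 9.13 (O1), 6.97 (O3) and 13.2 CPM (N3) in wild-type cerulein, against 8.86 (W1), 9.55 (K5) and 8.31 CPM (R3) in wild-type saline, and the change was 0.14 ± 0.28 (edgeR adjusted p = 0.748). Labelled knockout libraries held 10.5 (C2), 9.58 (L4) and 6.05 CPM (C3) in cerulein, against 8.83 (S1), 13.6 (K4) and 8.70 CPM (Q1) in saline. Per kb of exon the level of Atp6v1b2 was 16.2 to 63.0 times that of Atp6v1a in wild-type cerulein and 3.38 to 4.34 times in wild-type saline. C2 and L4 gave 15.6 and 26.5 for this ratio, C3 gave 5.30 and labelled knockout saline 2.51 to 4.19. Exon lengths were those of all annotated transcripts of a gene together, so a level per kb depends on which of them the tissue uses.

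Other V1 genes changed less. Atp6v1h, the regulatory subunit H (chromosome 1, 5070018 to 5162529, plus strand), held 26.05 to 36.8 CPM in wild-type cerulein and 16.1 to 17.3 CPM in wild-type saline (log2 fold change 0.92 ± 0.21, edgeR adjusted p = 0.0113). It kept its call in all alternative settings of the wild-type comparison, with an adjusted p of at most 0.0475. Atp6v1e1 belongs to the outer stalks that hold V1 to V0, and it fell. It held 16.4 (O1), 16.3 (O3) and 16.7 CPM (N3) in wild-type cerulein, against 29.2 (W1), 28.1 (K5) and 27.7 CPM (R3) in wild-type saline. C2 and L4 held 17.2 and 15.8 CPM and C3 24.0 CPM, against 24.7 (S1), 28.1 (K4) and 23.8 CPM (Q1) in labelled knockout saline. C3 is the only cerulein library of these 6 at the saline level. The log2 fold change of Atp6v1e1 was -0.78 ± 0.16 in wild type (adjusted p = 0.00932) and -0.63 ± 0.12 in the labelled knockout without C3 (adjusted p = 0.00336). The most abundant forms of the other V1 subunits (Atp6v1c1, Atp6v1d, Atp6v1f, Atp6v1g1) did not pass in either genotype, with wild-type log2 fold changes of -0.16, -0.38, 0.19 and 0.30. Of these, Atp6v1f held 24.2, 28.4 and 17.4 CPM in O1, O3 and N3, against 23.1, 17.7 and 20.6 CPM in W1, K5 and R3, and Atp6v1g1 held 25.6, 27.0 and 18.2 CPM, against 21.02, 16.9 and 19.4 CPM. Both overlapped between the groups. Atp6v1g2, a form of subunit G best known from neurons, did not pass either (0.26 ± 0.44, adjusted p = 0.69).

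In the V0 sector the summed level was 145 to 165 CPM in wild-type cerulein and 163 to 175 CPM in wild-type saline, and the groups overlapped. Scaled on plain library totals the ratio of the wild-type means was 1.11 in place of 0.916, so its direction depends on the scaling. Single V0 genes moved in opposite directions. Atp6v0d1, the subunit d that joins the membrane ring to the central stalk (chromosome 8, 105524465 to 105566047, minus strand), held 22.6 (O1), 24.6 (O3) and 19.6 CPM (N3) in wild-type cerulein, against 35.3 (W1), 31.8 (K5) and 34.1 CPM (R3) in wild-type saline. The log2 fold change was -0.60 ± 0.15 (edgeR adjusted p = 0.0148), lost without W1 or R3 (adjusted p up to 0.0512), and -0.40 ± 0.14 in the labelled knockout without C3 (adjusted p = 0.0479). Its paralog Atp6v0d2, best known from osteoclasts and macrophages, had 40, 35 and 24 counts in O1, O3 and N3, against 0, 0 and 6 counts in W1, K5 and R3. It did not pass (3.79 ± 1.34, adjusted p = 0.053), though it did without C3 (adjusted p = 0.0165) or without L4 (adjusted p = 0.0275). With R3 dropped the wild-type saline libraries hold 0 counts, and the fitted 7.99 then depends on the prior count and is no bound. With another library dropped the fitted value was 3.27 to 4.02. Labelled knockout counts were 6 (C2), 50 (L4) and 0 (C3) in cerulein, against 2 (S1), 4 (K4) and 0 (Q1) in saline, and without C3 the difference did not pass (log2 fold change 3.001 ± 1.114, adjusted p = 0.0669). Its share of subunit d, in CPM per kb, was 2.78% to 4.35% in wild-type cerulein and 0% to 0.456% in wild-type saline.

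Subunit a, which carries the proton channel, has 4 forms. Atp6v0a4, known from acid-secreting cells of the kidney, had 159, 121 and 123 counts in O1, O3 and N3, against 4, 11 and 25 counts in W1, K5 and R3. C2 and L4 had 281 and 211 counts and C3 had 10, against 59 (S1), 6 (K4) and 8 (Q1) in labelled knockout saline. Its log2 fold change was 3.09 ± 1.012 in wild type (edgeR adjusted p = 0.0403) and 2.87 ± 0.74 in the labelled knockout without C3 (adjusted p = 0.0161). Atp6v0a2, a form known from Golgi and endosomes, fell. It held 13.0 (O1), 13.8 (O3) and 14.05 CPM (N3) in wild-type cerulein, against 19.4 (W1), 24.6 (K5) and 22.1 CPM (R3) in wild-type saline (log2 fold change -0.69 ± 0.21, adjusted p = 0.0293). The call of Atp6v0a4 ended when any 1 of W1, K5, R3, O1, O3 or N3 was dropped (adjusted p as high as 0.12), and that of Atp6v0a2 with K5, R3, O1, O3 or N3 dropped (as high as 0.0998). Without C3 both passed in wild type (0.00829 and 0.00143). Atp6v0a4 shares 259 exonic bases with D630045J12Rik on its own strand.

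In shares of subunit a, counted per kb and with Tcirg1 included, Atp6v0a4 made up 9.12% to 15.8% in wild-type cerulein and 0.577% to 2.21% in wild-type saline. It made up 22.5% (C2) and 12.8% (L4) in labelled knockout cerulein, 1.14% in C3 and 0.56% to 5.05% in labelled knockout saline. Atp6v0a2 made up 21.8% to 26.7% in wild-type cerulein and 32.0% to 44.2% in wild-type saline. Atp6v0a1 and Tcirg1 made up the remainder, and the share of each overlapped between the groups. The other V0 genes (Atp6v0a1, Atp6v0b, Atp6v0c, Atp6v0e, Atp6v0e2) did not pass in either genotype. Atp6v0b, the most abundant of them, held 58.9, 63.6 and 44.1 CPM in O1, O3 and N3, against 67.7, 60.6 and 63.05 CPM in W1, K5 and R3. Atp6v0c, the main subunit of the proton-carrying ring, held 18.05, 18.7 and 21.8 CPM, against 18.4, 16.6 and 17.4 CPM. Neither gene separated the groups.

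**Figure D3:**
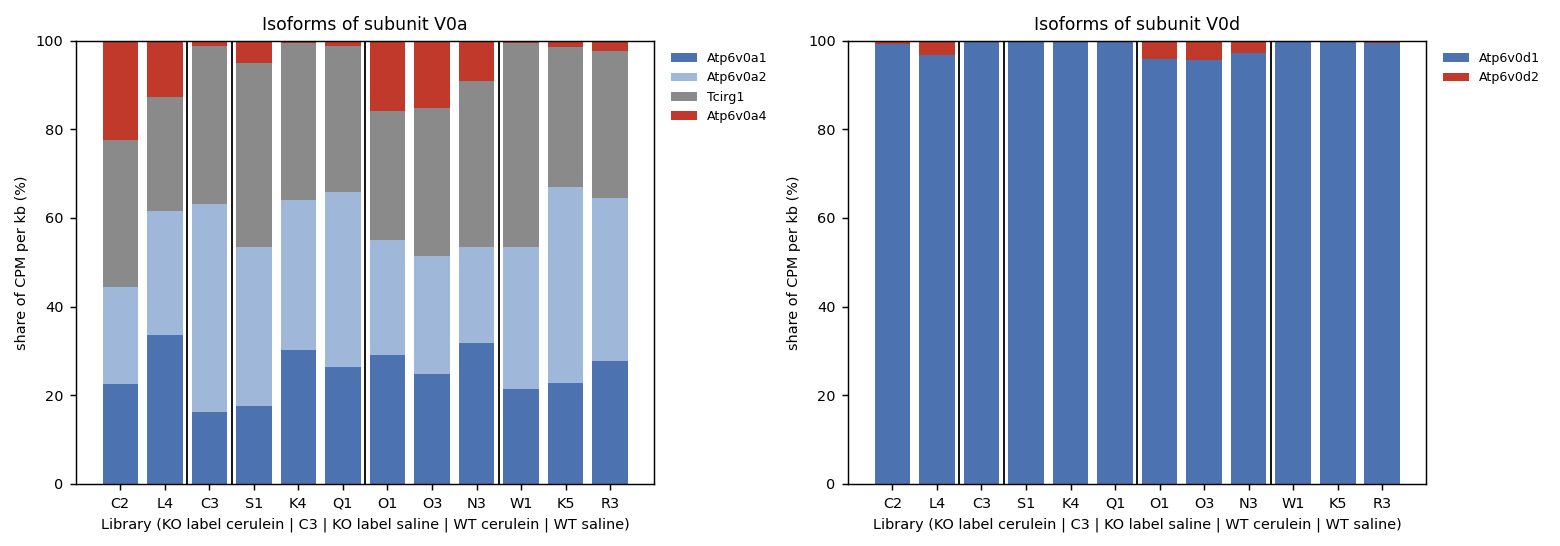
Share of each paralog in the summed CPM per kb of subunit a (left) and subunit d (right) in each of the 12 libraries (bars). The red segment on the left, Atp6v0a4, takes 9.12% to 22.5% in C2, L4, O1, O3 and N3 and at most 5.05% in C3 and the saline libraries.

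The accessory subunits rose together when C3 was left out of the fit. Atp6ap2 (chromosome X, 12587801 to 12617049, plus strand) held 56.4 (O1), 51.02 (O3) and 41.2 CPM (N3) in wild-type cerulein, against 16.3 (W1), 19.8 (K5) and 20.4 CPM (R3) in wild-type saline. C2 and L4 held 33.7 and 39.2 CPM and C3 16.9 CPM, against 17.96 (S1), 19.2 (K4) and 21.7 CPM (Q1) in labelled knockout saline. Cerulein over saline, Atp6ap2 gave 1.39 ± 0.27 on the log2 scale in wild type (edgeR adjusted p = 0.00918) and 0.90 ± 0.17 in the labelled knockout without C3 (adjusted p = 0.00286). Atp6ap1 held 52.7 to 56.01 CPM in wild-type cerulein and 41.6 to 45.3 CPM in wild-type saline. Its change of 0.31 ± 0.15 did not pass (adjusted p = 0.139), but it did without C3, at 0.31 ± 0.10 in wild type (adjusted p = 0.0368) and 0.39 ± 0.12 in the labelled knockout (adjusted p = 0.0305).

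Of the 4 membrane proteins 0 were higher and 1 was lower in wild type. Their summed level was 324 to 369.9 CPM in wild-type cerulein and 303 to 335 CPM in wild-type saline, a ratio of means of 1.09 (1.32 on plain totals). Lamp1 held 132 (O1), 141 (O3) and 138 CPM (N3) in wild-type cerulein, against 138 (W1), 137.5 (K5) and 153 CPM (R3) in wild-type saline. Labelled knockout libraries held 148 (C2), 139 (L4) and 129 CPM (C3) in cerulein, against 149 (S1), 153 (K4) and 145 CPM (Q1) in saline. Lamp2 held 65.1 (O1), 59.97 (O3) and 70.8 CPM (N3) in wild-type cerulein, against 69.3 (W1), 61.03 (K5) and 66.5 CPM (R3) in wild-type saline. The wild-type changes of -0.06 ± 0.14 for Lamp1 (edgeR adjusted p = 0.765) and -0.01 ± 0.17 for Lamp2 (adjusted p = 0.981) were smaller than their standard errors. Lamp2 in the labelled knockout held 67.8 (C2), 53.5 (L4) and 78.7 CPM (C3) in cerulein, against 75.8 (S1), 60.8 (K4) and 63.4 CPM (Q1) in saline.

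Scarb2 (LIMP-2), which carries glucocerebrosidase to lysosomes, fell in wild type. It held 32.2 (O1), 26.6 (O3) and 30.5 CPM (N3) in cerulein, against 37.9 (W1), 42.7 (K5) and 43.2 CPM (R3) in saline (log2 fold change -0.47 ± 0.16, edgeR adjusted p = 0.0414). Dropping W1, K5, R3, O1, O3 or N3 ended the call (adjusted p as high as 0.146). Labelled knockout animals held 45.1 (C2), 32.7 (L4) and 43.5 CPM (C3) in cerulein, against 48.1 (S1), 45.1 (K4) and 44.6 CPM (Q1) in saline. Scarb2 did not pass there without C3 (-0.24 ± 0.16, adjusted p = 0.297). Cd63, a tetraspanin of late endosomes and secretory granules, held 126 (O1), 143 (O3) and 84.9 CPM (N3) in wild-type cerulein, against 81.8 (W1), 61.6 (K5) and 72.4 CPM (R3) in wild-type saline. It did not pass there (0.71 ± 0.25, adjusted p = 0.0518), though it did without C3 (adjusted p = 0.014). In the labelled knockout Cd63 held 112 (C2), 106 (L4) and 63.4 CPM (C3) in cerulein, against 66.5 (S1), 58.7 (K4) and 61.7 CPM (Q1) in saline. That difference passed without C3 (0.81 ± 0.21, adjusted p = 0.016).

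**Figure D4:**
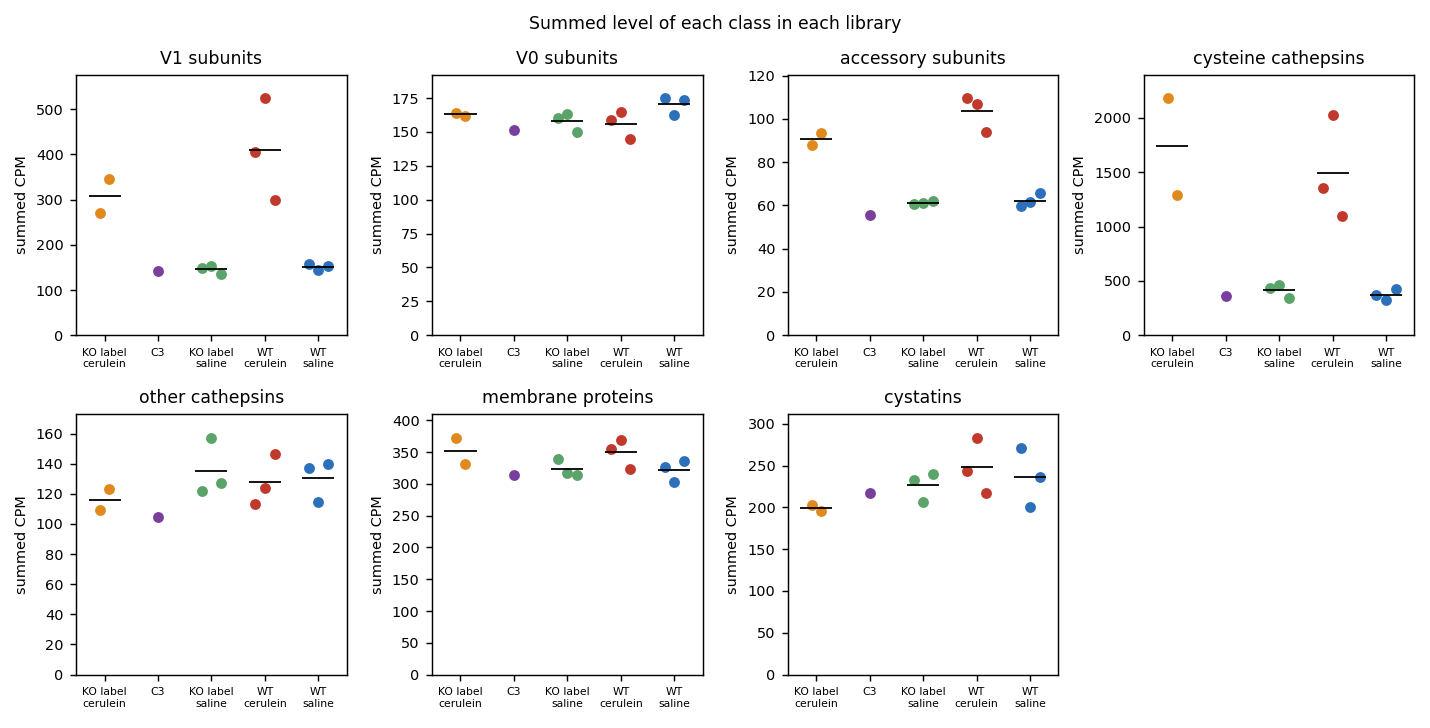
Summed CPM of each of the 7 classes (panels) in each of the 12 libraries (points), with axes from 0, a line at each group mean and C3 in a column of its own. Cysteine cathepsins, V1 subunits and accessory subunits are higher in C2, L4, O1, O3 and N3 than in any saline library; the other 4 classes overlap.

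The labelled knockout comparison as labelled, with all 12 libraries, called 0 of the 34 genes by edgeR and 0% of all genes tested. At an unadjusted p below 0.05 it gave 10, but no share of all genes is given for that threshold. By limma-voom 0 were called, against 0% of all genes. DESeq2 called 4 higher (Atp6v1b2, Cstb, Ctsc and Ctsl) and 0 lower, against 8.48% and 0.817% of all genes. Without C3, 11 were higher and 4 lower by edgeR, against 18.7% and 10.5% of all genes tested, with a median log2 fold change of 0.32 for the 34 genes and 0.00 for all genes. Without C3, DESeq2 called 12 higher and 5 lower, against 18.5% and 12.6% of all genes, and limma-voom 11 higher and 4 lower, against 18.1% and 11%. Of the 14 genes called in wild type, C3 lay inside the range of the 6 saline libraries for 11. No such count was made over all genes called. Atp6v0a2, at 26.1 CPM, lay above that range, and Ctsb (54.3 CPM) and Ctsz (19.2 CPM) lay below it. The labelled knockout comparison without C3 rests on 2 cerulein libraries.

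**Figure D5:**
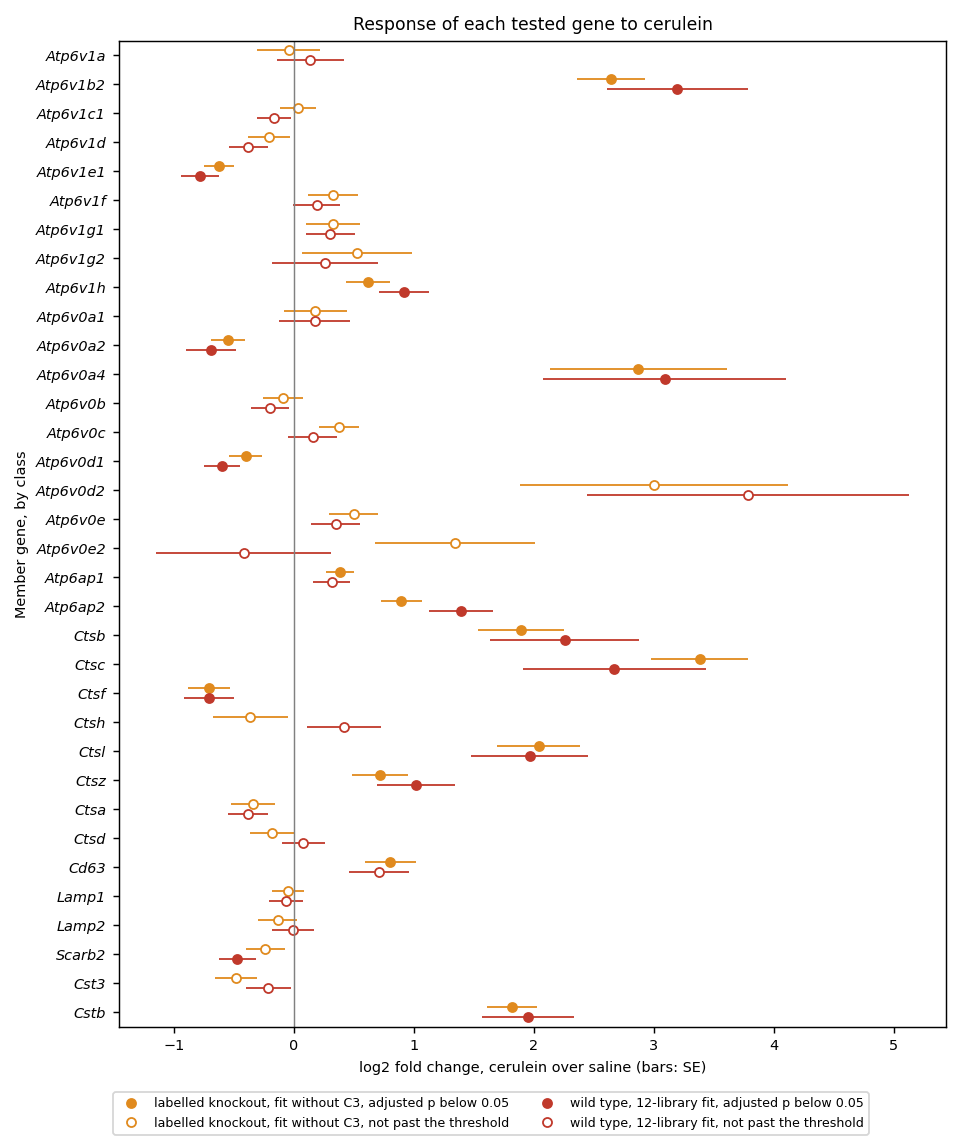
Log2 fold change of cerulein over saline with its standard error (bars) for the 34 tested genes, in the labelled knockout without C3 (orange) and in wild type in the fit of 12 libraries (red), with filled symbols past the threshold. In both, Atp6v1b2, Atp6v0a4, Ctsb, Ctsc, Ctsl, Cstb and Atp6ap2 are filled at 0.90 or more, and Ctsf, Atp6v1e1, Atp6v0a2 and Atp6v0d1 are filled below 0.

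Differences between the genotype labels were not found by edgeR. None of the 34 genes passed for labelled knockout against wild type in saline, for the same in cerulein, or for the difference of the cerulein responses, with or without C3, where 0% of all genes passed each time. At an unadjusted p below 0.05 there were 0 in saline, 5 in cerulein (3 without C3) and 1 for the difference of responses (0 without C3), and DESeq2 and limma-voom called 0 in each with 12 libraries. No share of all genes is given for the unadjusted threshold, or for DESeq2 and limma-voom in these comparisons. Those counts therefore cannot be set against one. In saline the median difference of the 34 genes was 0.01. The difference of the Ctsb responses was -0.37 ± 0.49 without C3 (adjusted p = 0.999), and that of Ctsc was 0.71 ± 0.53 (adjusted p = 0.999). Labelled knockout against wild type in cerulein, Atp6ap2 had a log2 fold change of -0.44 ± 0.17 without C3, which did not pass (adjusted p = 0.974).

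The order of levels, in mean CPM per kb of exon, was led by Cst3 in both treatments. In the 5 cerulein libraries other than C3 it ran Cst3 at 139 (119 to 170), Ctsl at 136 (92.5 to 191), Cstb at 87.2 (72.2 to 114) and Ctsb at 65.9 (50.9 to 87.2). Lamp1 at 52.2, Atp6v1b2 at 45.8, Ctsc at 42.1 and Ctsd at 40.9 came next. In the 6 saline libraries it ran Cst3 at 172 (149 at the lowest), Lamp1 at 54.6 (51.4 to 57.3), Ctsd at 41.7 (35.4 to 50.2) and Ctsl at 34.2 (29.1 to 41.6), followed by Atp6v0b at 29.1 and Cstb at 23.0. Ctsb was 12th at 15.7 (10.9 to 27.05), Atp6v1b2 19th at 5.67 and Ctsc 20th at 5.23. Neighbours in these orders mostly overlapped, but in saline Cst3 stood clear of Lamp1. Lamp1 (51.4 at the lowest) lay just above Ctsd (50.2 at the highest) there. The place of Ctsd carries the uncertainty of its overlap with Gm49369, so its order against Lamp1 is not settled.

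Other genes were read from 8 related lists of 89 genes, 7 of lysosomal or V-ATPase genes and their regulators and 1 of trypsinogen partners. Of the 86 tested, 7 were higher and 13 lower in wild type, with a median log2 fold change of -0.17. These are 8.14% and 15.1% of the lists, against 17.9% and 12.8% of all genes and a median of 0.05 for all genes. The 5 trypsinogen partners, which are not lysosomal genes, gave 2 of the higher and 1 of the lower. Of 30 lysosomal hydrolases and activators 0 were higher and 3 lower, the sialidase Neu1 (-0.76 ± 0.16, edgeR adjusted p = 0.00995), the sphingomyelinase Smpd1 (-0.64 ± 0.14, adjusted p = 0.0112) and the fucosidase Fuca1 (-0.58 ± 0.16, adjusted p = 0.0212). Neu1 held 9.47 to 10.9 CPM in wild-type cerulein and 16.6 to 17.4 CPM in wild-type saline. Of 17 other membrane and sorting-receptor genes 2 were higher and 5 lower. The rises were Npc1, the cholesterol exporter (22.5 to 48.2 CPM in wild-type cerulein and 6.14 to 8.63 CPM in wild-type saline, log2 fold change 2.35 ± 0.35, adjusted p = 0.00918), and M6pr, a receptor that brings mannose-tagged enzymes to lysosomes (92.9 to 104.5 CPM and 22.9 to 27.1 CPM in the same order, 1.99 ± 0.36, adjusted p = 0.00918). The falls with the largest size were the sialic acid carrier Slc17a5 (-1.21 ± 0.27, adjusted p = 0.011) and the cystine carrier Ctns (-1.02 ± 0.29, adjusted p = 0.0233).

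Smaller lists were read in the same way in wild type, where 17.9% of all genes were higher and 12.8% lower. Of 3 enzyme-sorting genes Gnptg fell (-0.48 ± 0.16, edgeR adjusted p = 0.0406), and of 10 V-ATPase assembly genes Rogdi (-0.80 ± 0.19, adjusted p = 0.0126) and Wdr7 (-0.77 ± 0.23, adjusted p = 0.0286) fell. Both belong to the complex that rejoins V1 and V0. Of 9 genes of the Ragulator and Rag complexes, which tether mTORC1 to lysosomes, Rragc (0.62 ± 0.14, adjusted p = 0.0114) and Lamtor3 (0.49 ± 0.15, adjusted p = 0.0299) rose. Of 7 genes of the MiT/TFE factors, which switch on lysosomal genes, and their regulators, Tfe3 rose (1.08 ± 0.28, adjusted p = 0.0169) and Flcn, a negative regulator, fell (-1.15 ± 0.20, adjusted p = 0.00918). Tfe3 held 22.5 to 25.01 CPM in wild-type cerulein and 9.55 to 12.2 CPM in wild-type saline. Of 5 other cathepsin and cystatin genes tested (8 listed) none passed, the most abundant being Ctss (1.14 ± 0.61, adjusted p = 0.174) and Ctso (-0.26 ± 0.37, adjusted p = 0.632).

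Of 5 trypsinogen partners Prss1 and Prss3 rose and Ctrc, chymotrypsin C, fell in wild type. The log2 fold change was 4.24 ± 0.57 for Prss1 (edgeR adjusted p = 0.00918) and 2.26 ± 0.54 for Prss3 (adjusted p = 0.0133). Prss1 held 49.95 to 52.3 CPM in wild-type cerulein and 2.17 to 3.04 CPM in wild-type saline, and Ctrc held 56.0 to 87.1 CPM in cerulein and 206 to 255 CPM in saline (log2 fold change -1.74 ± 0.48, edgeR adjusted p = 0.0213). Reads may be split among these near-identical trypsinogen genes. Prss2 and the trypsin inhibitor gene Spink1 did not pass. Without C3, 6 of 87 genes in the 8 lists were higher and 11 lower in the labelled knockout (6.9% and 12.6%, against 18.7% and 10.5% of all genes), among them M6pr (1.31 ± 0.16, adjusted p = 0.000212), Tfe3 (0.95 ± 0.15, adjusted p = 0.000969) and Flcn (-0.89 ± 0.21, adjusted p = 0.00877).

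Markers of other cells were read beside these results, since in bulk tissue fewer cells of a type and less RNA per cell cannot be told apart. None of 10 macrophage and monocyte markers passed in wild type. Their summed level was 239 (O1), 199 (O3) and 569 CPM (N3) in wild-type cerulein, against 204 (W1), 140 (K5) and 228 CPM (R3) in wild-type saline. Labelled knockout sums were 252 (C2), 214 (L4) and 94.4 CPM (C3) in cerulein, against 285 (S1), 460 (K4) and 110 CPM (Q1) in saline. Lyz2 alone gave 332 CPM of the sum in N3 and 250 CPM in K4. Single markers differed in wild type. Cd14 held 32.05 to 75.6 CPM in cerulein and 7.91 to 17.96 CPM in saline, and Cd68 6.05 to 12.9 CPM and 2.83 to 5.83 CPM. Adgre1, Csf1r, C1qb and C1qc were lower in O1 and O3 than in every wild-type saline library, and higher in N3. N3 had the highest macrophage and monocyte sum of the 12 libraries. Of the wild-type cerulein libraries it had the lowest Ctsb, Ctsc, Ctsl and Cstb and the highest Ctsd and Ctsh. K4 had the highest sum of the saline libraries and the highest Ctsb, Ctsc, Ctsd, Ctsh and Ctsz among them, but the lowest Ctsl. Neutrophil, lymphocyte and adipocyte sums were also highest in N3 (129.5, 232 and 349 CPM) and K4 (98.0, 113 and 408.5 CPM). No neutrophil (5), lymphocyte (4 tested of 6), adipocyte (5), islet (6) or fibroblast (5) marker passed in wild type, and 1 of 4 endothelial markers was lower. Among duct markers 4 of 5 were higher (5 of 5 without C3), and their sum was 207 to 367 CPM in wild-type cerulein and 60.9 to 71.9 CPM in wild-type saline, 199 and 230 CPM in labelled knockout cerulein without C3, 81.1 CPM in C3 and 52.1 to 70.3 CPM in labelled knockout saline. Of 6 acinar markers 2 were lower (3 without C3), and in the labelled knockout without C3, 3 of 6 islet markers were higher. The islet sum was 1327 (C2), 11450 (L4) and 458.5 CPM (C3) in labelled knockout cerulein, against 787 to 1162 CPM in labelled knockout saline. It thus stood far above saline in L4 alone. The part of these markers in the lysosomal changes was not tested.

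The promoters of some of these genes hold the palindrome CACGTG, the core of the element that MiT/TFE factors bind, so those stretches are shown. RefSeq promoter windows (GRCm38.p6, 250 bases before to 50 after the start) were found for 30 of the 42 genes, 34 windows in all. CACGTG, which reads the same on both strands, was in 9 of the 34 (26.5%) and in 7.15% of all 32851 windows of that length. TCACGTGA, which contains it, was in 5 (14.7%) and in 0.974% of all. TGACTCA, the core of an AP-1 element, was searched on both strands and found in 0 of the 34 and in 5.2% of all, and TGACGTCA, the cAMP-response element to which Atf3 can bind, in 0 of the 34 and in 1.79% of all. Each line gives 30 bases on the gene's own strand with CACGTG in capitals.

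Lamp1 (chr8:13159088-13159117, plus strand): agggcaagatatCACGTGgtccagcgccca
Lamp1 (chr8:13159104-13159133, plus strand): tggtccagcgccCACGTGatgccgactggc
Lamp1 (chr8:13159121-13159150, plus strand): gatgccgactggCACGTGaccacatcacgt
Lamp1 (chr8:13159134-13159163, plus strand): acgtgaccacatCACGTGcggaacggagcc
Ctsd (chr7:142387908-142387937, minus strand): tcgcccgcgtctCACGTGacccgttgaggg
Ctsa (chr2:164833749-164833778, plus strand): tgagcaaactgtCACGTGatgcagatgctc
Atp6v1a (chr16:44139373-44139402, minus strand): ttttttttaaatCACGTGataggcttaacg
Atp6v0b (chr4:117887348-117887377, minus strand): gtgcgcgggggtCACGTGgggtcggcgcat
Atp6v0e (chr17:26676387-26676416, plus strand): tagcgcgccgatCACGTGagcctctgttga
Atp6v0d1 (chr8:105566050-105566079, minus strand): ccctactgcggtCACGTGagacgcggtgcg
Ctsf (chr19:4855074-4855103, plus strand): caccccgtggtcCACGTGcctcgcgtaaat
Ctsl (chr13:64370739-64370768, minus strand): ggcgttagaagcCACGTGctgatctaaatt

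Lamp1 held 4 copies, from 61 to 15 bases before its start, and Ctsd, Ctsa and Atp6v0b held 2 each. Of the 9 genes with CACGTG, 1 was higher in wild-type cerulein (Ctsl), 2 were lower (Atp6v0d1 and Ctsf) and 6 did not pass (Lamp1, Ctsd, Ctsa, Atp6v1a, Atp6v0b and Atp6v0e). Of the 16 tested genes whose windows lacked it, 4 were higher, 2 lower and 10 did not pass. The match of letters is a description of these windows and shows no binding. Windows were not used here for Atp6v1b2, Atp6v1c1, Atp6v1g1, Atp6v1h, Atp6v0a2, Atp6v0c-ps1, Atp6v0c-ps2, Atp6v0d2, Atp6ap1l, Ctsb, Ctsh and Cstb.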

How the data were processed

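The deposited values are whole-number read counts per Ensembl gene in 12 libraries, with no normalization. The kit was an Illumina stranded kit for total RNA per the labels, and HTSeq, DESeq2 and mm10 appear in the submitters' processing notes without versions or roles. The sources used here do not give the aligner, annotation release or strand setting. Symbols, coordinates and exon lengths came from GENCODE M21 (GRCm38), matched by identifier for 49326 of 49585 genes. Promoter windows came from RefSeq (GRCm38.p6).

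All counts were fitted in 1 model of 4 group means with edgeR 4.0.16 (R 4.3.3): filterByExpr (14329 genes), TMM scaling and the robust quasi-likelihood F test (two-sided). P-values were adjusted by Benjamini-Hochberg over every gene tested, and 0.05 was the threshold. Standard errors were obtained as log2 fold change over the root of F. The biological coefficient of variation was 0.357. CPM are counts per 1000000 on TMM-scaled totals. Scaling on plain totals would raise the wild-type log2 fold changes by 0.29 and those of the labelled knockout by 0.21 (0.32 without C3). The fold changes reported here are on the TMM scale and are not adjusted for that shift. Alternatives used DESeq2 1.42.0, limma 3.58.1 (voom), other scalings and filters, and each library left out. Ratios were tested with SciPy 1.17.1, and tables and figures used pandas 2.3.3, NumPy 2.4.6 and matplotlib 3.10.9 in Python 3.11.15. The fit was tested on simulated counts that held no library like C3, so that test cannot speak to the effect of C3.

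The labels give no batch, sex or litter. The genes, classes and lists were chosen with earlier results of these data known. Values in every library are given for Ctsb, Ctsl, Ctsd, the cystatins, the membrane genes, the 3 largest rises and falls past the threshold and the main V-ATPase isoforms, except that some of these are given by range. From each list the text names up to 4 called genes in order of size of change, or else the 2 most abundant. The groups are read from the labels, 3 animals each per the series' design.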

Additional observations from a re-analysis of the deposited data

How the results depend on the processing

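No paired analysis was possible because library codes differ from group to group. The number of wild-type genes called higher was 9 and ran from 4 to 12 with each library left out in turn. It was 10 in edgeR with RLE size factors (17.9% of all genes higher), 8 with no filter (9.25%) and 11 by DESeq2 (20.2%). The number called lower was 5, ran from 1 to 5 with a library left out, and was 2 with no filter on low counts (4.13% of all genes lower). With no filter, Atp6v0a2, Atp6v0a4, Ctsc, Ctsf and Scarb2 lost their wild-type calls, and Atp6v0a4 also by limma-voom. Atp6ap2, Atp6v1b2, Atp6v1e1, Cstb and Atp6v1h were called in wild type in all 19 alternatives. The share of all genes moved with these counts. Over all genes 2568 were higher and 1831 lower in wild type, with 1058 lower when no filter was used. Left-out libraries gave 1270 and 571 (O3), 1321 and 812 (R3), 1371 and 834 (K5), 1576 and 831 (O1) and 1623 and 958 (W1), and over all 12 the shares ran from 8.57% to 21.3% higher and from 3.85% to 16.6% lower. For the labelled knockout the counts were 0 higher and 0 lower, from 0 to 11 and from 0 to 4 with a library left out, the upper values being those without C3. DESeq2 called 4 higher. DESeq2 without C3 called 12 and 5, and limma-voom without C3 called 11 and 4, both chosen after seeing the data.

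Small changes that did not pass turned sign in wild type, and the cause was not tested. With a library left out, Atp6v0a1 ran from -0.047 to 0.311, Atp6v1a from -0.142 to 0.327, Atp6v1g2 from -0.044 to 0.680, Ctsd from -0.013 to 0.163 and Lamp2 from -0.067 to 0.051. Lamp2 was 0.047 with no filter and 0.016 in a fit of the wild-type groups alone. Labelled knockout against wild type in cerulein, Ctsc was -0.225 by limma-voom and ran from -0.472 to 1.124 with a library left out. The Ctsb to Ctsl difference in the labelled knockout ran from -0.746 to 0.173. On plain totals the cerulein to saline ratios of summed levels in wild type were 1.11 (V0), 2.02 (accessory), 1.21 (other cathepsins), 1.32 (membrane) and 1.28 (cystatins). With C3 the labelled knockout gave 1.16 (V0), 0.95 (other cathepsins), 1.21 (membrane) and 1.05 (cystatins). Without C3 it gave 1.27, 1.05, 1.34 and 1.095 in the same order. Depth limits Atp6v0d2 and Atp6v0a4 most, with at most 6 and 25 counts in a wild-type saline library. The related lists and the markers were run in the 12-library fit and without C3 alone.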
